A study of Mus musculus with 20 samples.

Results

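The genes described here make, sense, transfer and export cholesterol in mouse epididymal fat. Members were taken from a list of 29 sterol genes by the gene symbol of the array's annotation, with the probe set of the highest mean signal standing for a gene. A probe set was found for 25 of the 29, out of 19505 genes measured, and none of the 25 had several probe sets. They were 17 enzymes of synthesis, 4 genes of sterol sensing (Srebf2, Scap, Insig1 and Insig2), the sterol carrier Stard4, and 3 genes of efflux and its control (Abca1, Abcg1 and Nr1h3). Acat2, Tm7sf2, Nr1h2 and Soat1 are not analysed here. The list holds no lipoprotein receptor, so that uptake is described below only through related genes outside it.

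Cells build cholesterol from acetyl units through mevalonate, squalene and lanosterol. When membrane sterol is low, SCAP escorts the precursor of SREBP-2, the product of Srebf2, from the endoplasmic reticulum to the Golgi, where it is cut to an active transcription factor of the synthesis genes. INSIG1 and INSIG2 hold SCAP back when sterol is plentiful, and Insig1 is itself a target of SREBP. When oxysterols build up, the liver X receptors, of which Nr1h3 encodes LXRα, turn on the exporters ABCA1 and ABCG1. Adipocytes store a large pool of free cholesterol around their lipid droplets, and macrophages of obese fat take up lipid from dying adipocytes.

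Whole epididymal fat pads of 20 male C57BL/6 mice were measured, with 1 expression array per mouse. Tnf, the gene of the cytokine TNF-α, was floxed on both copies in all of them (TNF-αFlox/FLox), and the 10 control mice, called wt, were LyzMcre-/- and so differ from ordinary wild-type mice in carrying the floxed gene. The 10 cre mice were LyzMcre+/- littermates, in which Cre is driven from the lysozyme 2 locus, active in macrophages, neutrophils and other myeloid cells and not in adipocytes. Chow was fed for the first 10 weeks of life, then for 18 weeks a purified diet with 40% of calories from fat, and mice were 28 weeks old at sampling. Both batches named in the sample titles held 5 wt and 5 cre mice. Values are log2 signals, on which a difference of 1 is a doubling, and differences are cre minus wt. The comparison asks which fat transcripts differ when Tnf is deleted in myeloid cells. No group carried Cre without floxed Tnf, so that deletion of Tnf and the presence of Cre at the lysozyme 2 locus cannot be told apart.

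Tnf was lower by a log2 difference of -1.99 in cre mice (SE 0.24, limma adjusted p = 0.000822) and was the only probe set of 22206 past adjustment. The labels do not say which part of Tnf is floxed or whether the array's probes lie in it, and therefore loss of the probed sequence and a lower transcript level cannot be told apart. The mean of 12 adipocyte markers lay between 14.51 and 17.03 in wt mice and between 16.12 and 17.11 in cre mice, lowest in wt mice 6 and 5. The mean of 15 macrophage markers lay between 11.68 and 13.42 in wt and between 10.56 and 12.74 in cre mice, lowest in cre mice 9 and 7. Transcripts of other tissues stood apart in 5 mice, with liver and pancreas markers in wt mouse 4, seminal vesicle and prostate in wt mouse 6, bladder and brown adipocyte in cre mouse 2, seminal vesicle in cre mouse 3 and erythroid markers in cre mouse 9. A mouse was counted here only if its mean of a tissue's markers exceeded the next highest of its genotype by more than 1 log2 unit. Alb, the gene of the liver's serum albumin, lay between 7.85 and 18.94 in wt and between 10.64 and 18.57 in cre mice, with a difference of 2.55 (limma p = 0.0418, adjusted p = 0.785). In whole tissue, fewer cells of a type and less RNA per cell cannot be told apart.

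Promoters of the members were read to describe what the members share besides their place on the list. RefSeq promoters of GRCm38.p6, from 250 bases before to 50 after a start, were found for 20 of the 25 members and 14 of the 17 synthesis genes. The motif CCAAT, the core of the site of the factor NF-Y, which acts beside SREBP on many sterol promoters, was sought on both strands, as were the motifs that follow. All 14 synthesis genes had CCAAT or its complement, against 41.1% of 27025 genes. Of the other 6 members with a promoter, 3 had it (Srebf2, Insig1 and Insig2). GGGCGG, a GC box, was in 12 of the 14 and in 5 of the other 6 members, against 38.2% of genes. TCACNCCAC, a strict spelling of the sterol regulatory element that SREBP binds, was in Hmgcs1 alone of the 14, against 1.44% of genes. A looser spelling, CACNNCAC, which overlaps the strict motif, was in 4 of the 14 (Hmgcs1, Msmo1, Hsd17b7 and Dhcr7) and in Insig1 and Insig2, against 18.2% of genes. A direct repeat of AGGTCA with 4 bases between, a strict site of liver X receptors, was in none of the 20 members with a promoter and in 0.0148% of genes. These matches are letters in a window and not measured binding. CCAAT was also in Ggps1 and Msmo1, which varied little with the other synthesis genes, as given further on. Whether the motifs bear on how the genes vary together was not tested.

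The bases before the start are shown for 5 of the 6 members that had a promoter entry and an unadjusted p under 0.05 for genotype, leaving out Insig2. They run 5′ to 3′ on the gene's strand, with CCAAT, CACNNCAC and TCACNCCAC of either strand in capitals. They lie at chr13:119690171-119690350 (plus strand) for Hmgcs1, chr5:114444089-114444263 (plus) for Mvk, chr10:76531515-76531564 (plus) for Lss, chr9:42264301-42264390 (minus) for Sc5d and chr5:28071322-28071411 (plus) for Insig1.
Hmgcs1: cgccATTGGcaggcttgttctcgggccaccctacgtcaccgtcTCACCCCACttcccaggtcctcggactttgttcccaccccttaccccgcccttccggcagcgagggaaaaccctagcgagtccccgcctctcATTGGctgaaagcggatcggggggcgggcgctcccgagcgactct
Mvk: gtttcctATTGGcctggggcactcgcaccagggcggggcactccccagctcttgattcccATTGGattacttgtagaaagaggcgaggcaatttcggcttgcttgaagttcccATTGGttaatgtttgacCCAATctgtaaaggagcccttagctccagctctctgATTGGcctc
Lss: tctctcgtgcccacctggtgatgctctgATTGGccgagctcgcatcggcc
Sc5d: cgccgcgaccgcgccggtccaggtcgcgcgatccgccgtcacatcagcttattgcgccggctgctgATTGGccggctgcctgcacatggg
Insig1: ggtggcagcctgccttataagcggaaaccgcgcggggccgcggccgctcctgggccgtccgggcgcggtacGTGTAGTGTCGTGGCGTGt
In Hmgcs1 the strict sterol element stood between 2 CCAAT boxes. Mvk held 5 CCAAT boxes, 4 of them on the opposite strand. Lss and Sc5d showed a CCAAT box and no sterol element. Insig1 showed 3 overlapping CACNNCAC matches on the opposite strand within its last bases before the start.

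No sterol gene passed adjustment for genotype, where 0.0045% of all probe sets did. Of the 25 members, 19 were higher and 6 lower in cre mice, where 50.7% of all probe sets were higher. The median difference of the members was 0.28, against 0.0034 over all probe sets. Of the 17 synthesis genes, 15 were higher in cre mice, with a median difference of 0.28. At an unadjusted p under 0.05, 8 of the 25 differed, 7 higher and 1 lower, where 6.29% of all probe sets did (3.24% higher and 3.05% lower), and the smallest limma adjusted p of any member was 0.770. By the series' own selection rule, at least 1.5-fold with an unadjusted p under 0.05, there were 2 members, Insig1 and Abcg1, where 1.04% of all probe sets were selected. The count of 8 fell to 3 without wt mouse 9, to 4 without wt mouse 6, wt mouse 10 or cre mouse 1, and to 5 without wt mouse 5 or cre mouse 10. In the same order, the share of all probe sets in these fits was 5.38%, 6.14%, 6.23%, 6.34%, 5.41% and 5.7%. Liver, adipocyte and macrophage transcripts also varied among the mice, and counts with them in the fit are given further on.

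**Figure D1:**
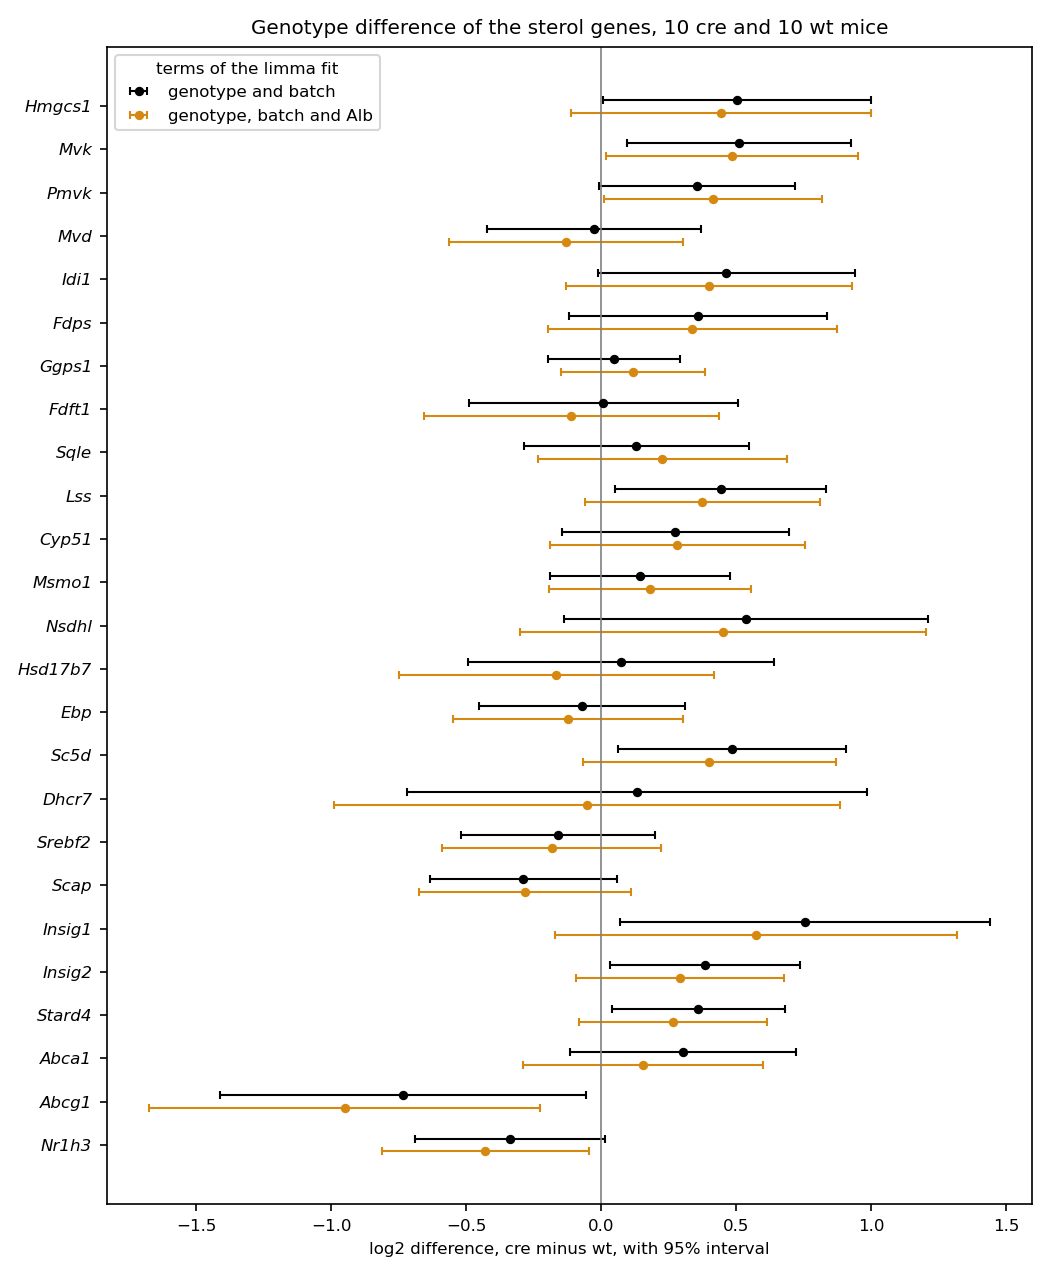
Log2 difference (cre minus wt) of each of the 25 sterol genes with its 95% interval, from the limma fit with genotype and batch (black) and with Alb added (orange), 10 mice per genotype. Most points lie right of 0, and Abcg1 lies farthest left at -0.73 without and -0.95 with Alb.

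The mevalonate arm leads from acetyl units to farnesyl diphosphate. Hmgcs1, at chr13:119690351-119708260, encodes the cytosolic enzyme that makes HMG-CoA. Its signal ran from 13.82 over a median of 15.44 to 15.90 in wt and from 15.22 over 15.59 to 16.26 in cre mice. Its mean was 15.20 ± 0.70 (SD, n = 10 wt mice) against 15.70 ± 0.36 (SD, n = 10 cre mice). All 10 cre mice lay above the wt mean, but the groups overlapped, because only wt mice 6, 9, 5 and 10 lay below the lowest cre mouse. The difference of 0.50 (SE 0.24, 95% interval 0.0062 to 1.00, limma p = 0.0474, adjusted p = 0.789) was 0.52 in batch 1, 0.49 in batch 2 and 0.34 when wt mouse 6 was left out.

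Mvk, which phosphorylates mevalonate, ran from 6.14 over a median of 7.21 to 7.61 in wt and from 6.90 over 7.58 to 8.21 in cre mice. The groups overlapped, with 8 of 10 cre mice above the wt mean. Its difference was 0.51 (SE 0.20, limma p = 0.0180, adjusted p = 0.770), with 0.48 in batch 1 and 0.54 in batch 2. Without each mouse in turn it lay between 0.41 and 0.61. Pmvk, the next kinase, ran from 7.91 over 8.35 to 8.74 in wt and from 7.96 over 8.60 to 9.67 in cre mice. The groups overlapped over nearly the whole wt range, with the top value in cre mouse 7. Its difference was 0.36 (SE 0.17, limma p = 0.0542), 0.57 in batch 1 and 0.14 in batch 2.

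Further down the arm, Idi1, which isomerises isopentenyl diphosphate, differed by 0.46 (limma p = 0.0545) and Fdps, which makes farnesyl diphosphate, by 0.36 (limma p = 0.133). Mvd, the decarboxylase between them and the kinases, differed by -0.026 with a 95% interval from -0.42 to 0.37. Ggps1 takes farnesyl diphosphate towards protein prenylation and away from sterols. Its signal ran from 9.80 over a median of 10.10 to 10.54 in wt and from 9.85 over 10.17 to 10.61 in cre mice, so that the groups covered nearly the same range. Its difference was 0.046 (limma p = 0.699), with 0.23 in batch 1 and -0.13 in batch 2. The mean of the 7 genes of the arm was 9.13 ± 0.30 (SD, n = 10 wt mice) against 9.44 ± 0.33 (SD, n = 10 cre mice).

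The second arm joins 2 farnesyl units to squalene, closes the rings and trims lanosterol to cholesterol. Lss, at chr10:76531565-76557139, encodes the cyclase that makes lanosterol. It ran from 9.48 over a median of 9.96 to 10.58 in wt and from 9.72 over 10.46 to 11.29 in cre mice. The groups overlapped, with 9 of 10 cre mice above the wt mean and cre mouse 6 highest. Its difference was 0.44 (SE 0.19, limma p = 0.0280, adjusted p = 0.774), 0.35 in batch 1 and 0.54 in batch 2.

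Sc5d, at chr9:42251592-42264300, encodes a desaturase of the sterol ring near the end of the pathway. Its signal ran from 14.06 over a median of 15.19 to 15.93 in wt and from 14.99 over 15.47 to 16.10 in cre mice. As for Hmgcs1, wt mice 6, 9 and 5 lay below the lowest cre mouse and the rest overlapped. The difference was 0.49 (SE 0.20, limma p = 0.0265, adjusted p = 0.772), 0.55 in batch 1, 0.42 in batch 2 and 0.36 when wt mouse 6 was left out. Nsdhl, which removes methyl groups of lanosterol together with Msmo1 and Hsd17b7, ran from 10.86 over 12.71 to 13.54 in wt and from 11.69 over 13.11 to 14.15 in cre mice. Its groups overlapped widely, and the estimate of 0.54 had a wide error (SE 0.32, limma p = 0.114). It was 0.35 without wt mouse 10.

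The other 7 genes of this arm had differences between -0.070 and 0.28, and none reached an unadjusted p under 0.05. Cyp51, the lanosterol demethylase, differed by 0.28, Msmo1 by 0.14, Dhcr7, which makes cholesterol in the last step, by 0.13 and Sqle, a rate-limiting oxidase, by 0.13. Hsd17b7 differed by 0.072, Fdft1, the squalene synthase, by 0.0080 and Ebp, a sterol isomerase, by -0.070. Dhcr7 had the widest interval of these, from -0.72 to 0.99, so that a doubling lies just outside it. The mean of the 10 genes was 9.86 ± 0.34 (SD, n = 10 wt mice) against 10.08 ± 0.43 (SD, n = 10 cre mice). Over both arms the mean difference was 0.26, with 0.25 in batch 1 and 0.26 in batch 2.

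**Figure D2:**
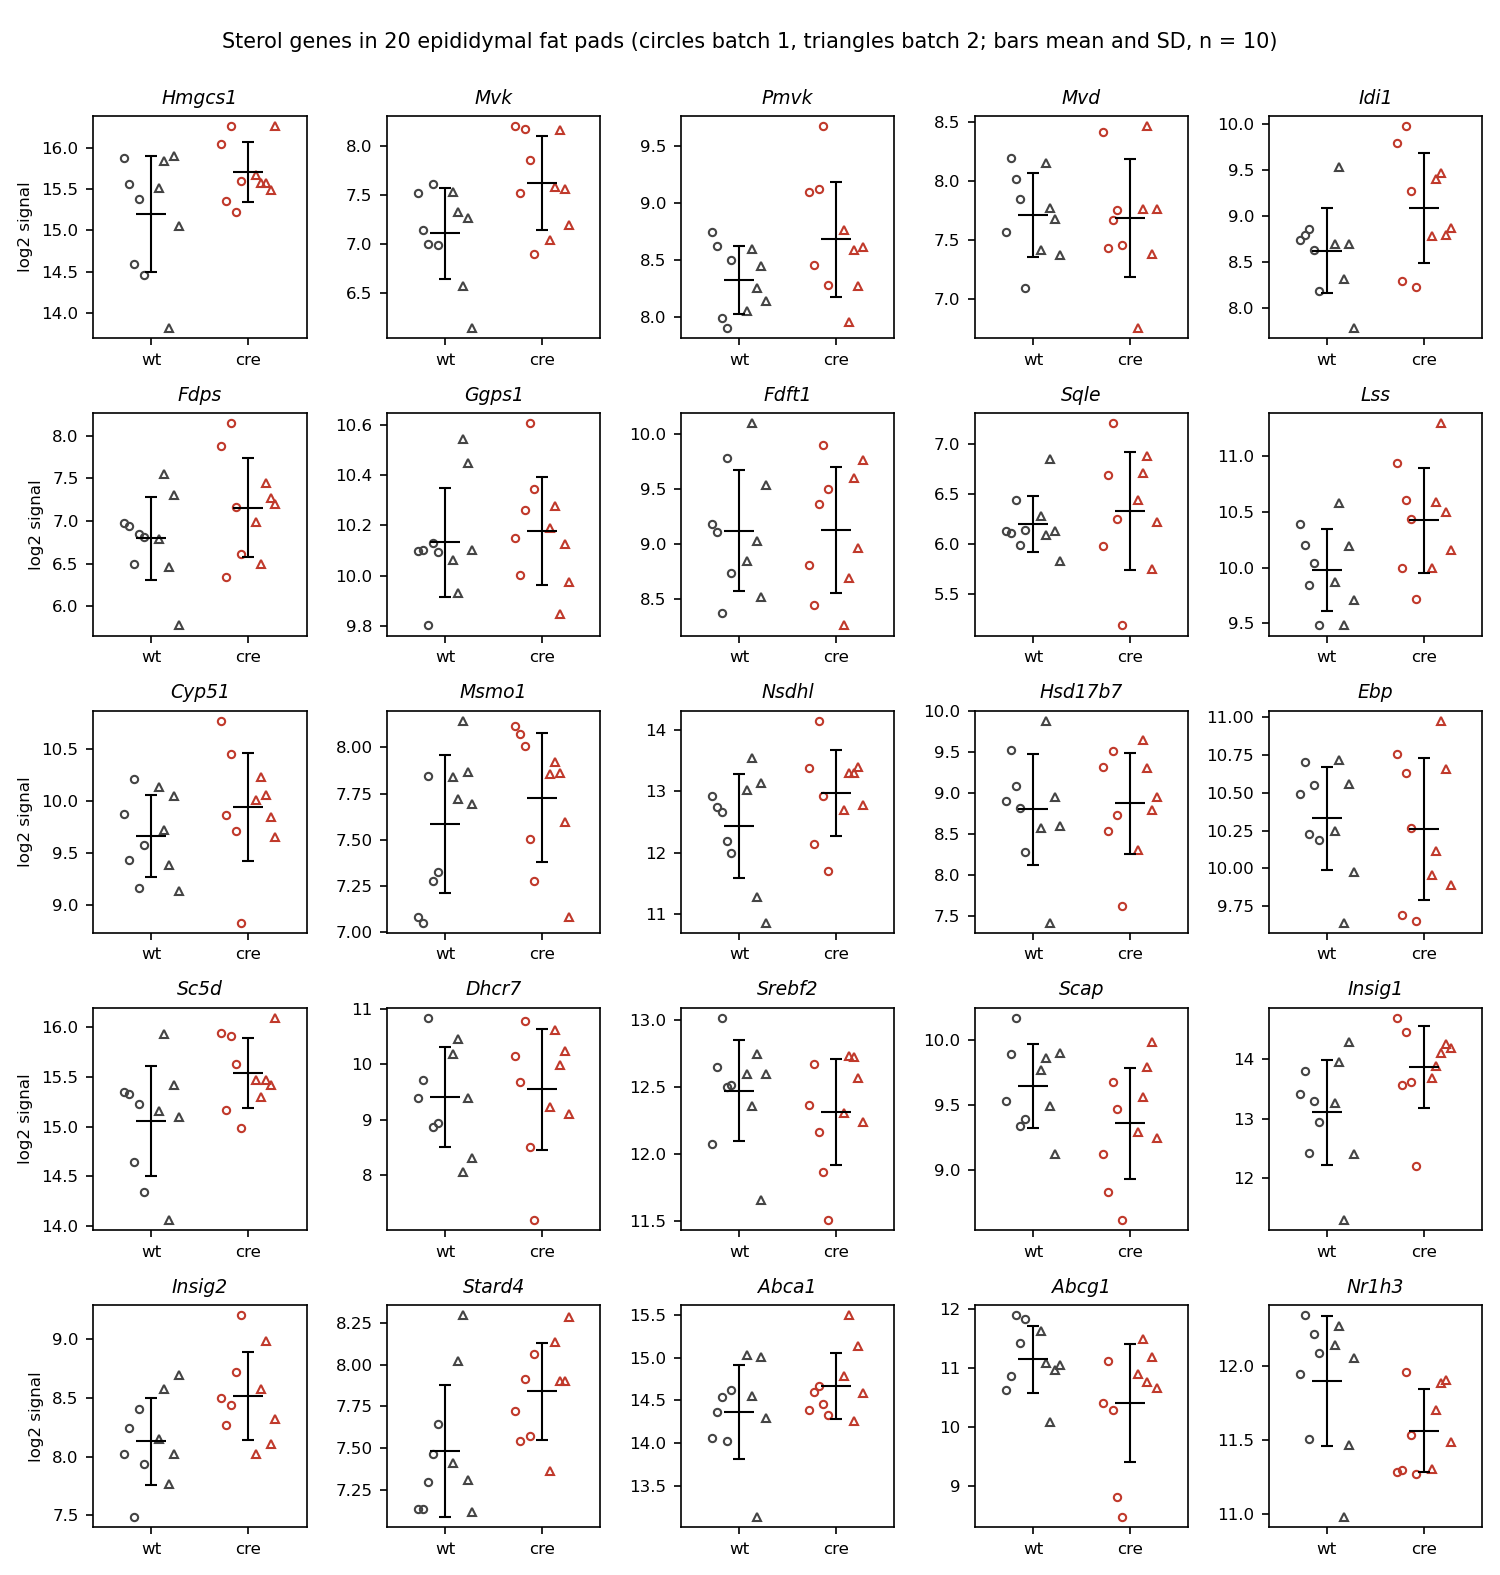
Log2 signal of sterol genes in each of the 20 mice, wt and cre side by side, with a point per mouse (circles batch 1, triangles batch 2) and bars at the mean and SD of 10 mice. The groups overlap in every gene shown, and the low wt points of Hmgcs1, Sc5d and Insig1 belong to wt mouse 6 in each case.

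Among the sensing genes, Insig1, at chr5:28071412-28078662, had the largest estimate of all members in the fit of all mice, close to Abcg1 (-0.73), which was the larger at equal Alb (-0.95 against 0.57) and without wt mouse 6 (-0.88 against 0.54). Its signal ran from 11.30 over a median of 13.28 to 14.29 in wt and from 12.21 over 13.99 to 14.70 in cre mice. Of the cre mice 9 of 10 lay above the wt mean, and cre mouse 9 was the exception. The difference was 0.76 (SE 0.33, 95% interval 0.071 to 1.44, limma p = 0.0320, adjusted p = 0.781), or 1.69-fold. By batch it came to 0.53 and 0.98, without wt mouse 6 to 0.54 and without cre mouse 9 to 0.95. Insig2, which unlike Insig1 is not induced by SREBP, ran from 7.48 over 8.09 to 8.70 in wt and from 8.02 over 8.47 to 9.21 in cre mice. The groups overlapped, and 8 of 10 cre mice lay above the wt mean. Its difference was 0.38 (SE 0.17, limma p = 0.0337, adjusted p = 0.781), 0.61 in batch 1 and 0.16 in batch 2.

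Srebf2 itself was not higher. It ran from 11.66 over 12.56 to 13.02 in wt and from 11.51 over 12.34 to 12.73 in cre mice, with overlapping groups. Its difference was -0.16 (SE 0.17, 95% interval -0.52 to 0.20, limma p = 0.371), -0.44 in batch 1 and 0.12 in batch 2. It was -0.071 without cre mouse 9, -0.087 without wt mouse 5 and -0.26 without wt mouse 8. Scap, the escort of SREBP, differed by -0.29 (limma p = 0.0983). Stard4, a carrier that moves cholesterol between membranes and a known SREBP target, ran from 7.12 over 7.36 to 8.30 in wt and from 7.36 over 7.90 to 8.29 in cre mice. The highest Stard4 signal was in wt mouse 6, where Hmgcs1, Sc5d and Insig1 were lowest among wt mice, and the groups overlapped. Stard4 differed by 0.36 (SE 0.15, limma p = 0.0294, adjusted p = 0.776), 0.43 in batch 1 and 0.29 in batch 2.

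Of the 3 genes of efflux and its control, Abcg1 and Nr1h3 had lower means in cre mice and Abca1 a higher one. Abcg1, at chr17:31057694-31117984, moves sterol to high-density lipoprotein and is abundant in macrophages. Its signal ran from 10.09 over a median of 11.07 to 11.90 in wt and from 8.48 over 10.72 to 11.50 in cre mice. The lowest values were 8.48 in cre mouse 9 and 8.83 in cre mouse 7, the mice with the lowest macrophage markers, and the other 8 cre mice lay within the wt range. The difference was -0.73 (SE 0.33, limma p = 0.0353, adjusted p = 0.781), or 1.66-fold lower in cre mice. It was -1.51 in batch 1, which holds both mice, and 0.040 in batch 2, and the test of that difference between batches gave limma p = 0.0141 (adjusted p = 0.654). Without cre mice 7 and 9 the genotype difference was -0.29 (limma p = 0.229), and with the macrophage marker mean in the fit it was -0.39 (limma p = 0.0581).

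Nr1h3 ran from 10.98 over 12.07 to 12.34 in wt and from 11.27 over 11.51 to 11.96 in cre mice. The groups overlapped, with wt mouse 6 below every cre mouse. Wt mice 8, 5 and 1 (11.47, 11.51 and 11.95) lay within the cre range. Nr1h3 was below the wt mean in 8 of 10 cre mice. Its difference was -0.34 (SE 0.17, limma p = 0.0581), -0.55 in batch 1 and -0.12 in batch 2. Abca1, which loads lipid-poor apolipoprotein A-I, ran from 13.14 over 14.46 to 15.04 in wt and from 14.26 over 14.59 to 15.49 in cre mice. The groups overlapped, and wt mouse 6 lay apart at the bottom. Abca1 differed by 0.30 (SE 0.20, limma p = 0.147), and by 0.15 without wt mouse 6. The mean of the 3 genes differed by -0.26, with -0.63 in batch 1, 0.12 in batch 2, -0.39 without wt mouse 6 and -0.17 without cre mouse 9.

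Batch itself moved no member past adjustment, and no member reached an unadjusted p under 0.05, where 0.572% of all probe sets did. That share is smaller than a threshold of 0.05 gives by chance. Whether batch was adjusted for before deposit is not given, and if it was, this result was fixed in advance. At an unadjusted p under 0.05 the genotype difference differed between batches in 2 of 25 members, near the 7.41% of all probe sets, and in 0 after adjustment. They were Abcg1 and Msmo1, whose difference was 0.48 in batch 1 and -0.19 in batch 2 (difference between batches -0.67, limma p = 0.0337, adjusted p = 0.663).

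Alb was added to the fit because liver transcripts differed between mice. At equal Alb no member passed adjustment (smallest limma adjusted p 0.912), and 4 of 25 had an unadjusted p under 0.05, where 5.38% of all probe sets did. By direction these were 2 higher (2.75% of all probe sets) and 2 lower (2.63%). Mvk was higher by 0.48 (limma p = 0.0421) and Pmvk by 0.42 (limma p = 0.0449), while Abcg1 was lower, at -0.95 (limma p = 0.0126), and so was Nr1h3, at -0.43 (limma p = 0.0303). The estimates of Hmgcs1, Lss, Sc5d, Insig1, Insig2 and Stard4 at equal Alb were 0.44, 0.38, 0.40, 0.57, 0.29 and 0.27, each within 1 SE of the value without Alb. Of the 25 members 16 were higher in cre mice, where 51.3% of all probe sets were. The slope of a member on Alb, in log2 units per log2 unit, passed adjustment in 0 of 25, where 0.725% of all probe sets did, and lay between -0.038 and 0.094. The mean difference of the synthesis genes was 0.26 without Alb and 0.21 with it. Beyond this change of estimate, the part of liver transcripts in the differences was not tested.

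Leaving out mice also moved the counts. Without the 5 mice with other-tissue transcripts, 11 of 25 members had an unadjusted p under 0.05, where 6.2% of all probe sets did. Of these 11, 10 were higher in cre mice (Mvk, Pmvk, Idi1, Fdps, Lss, Nsdhl, Sc5d, Insig1, Insig2 and Stard4) and Abcg1 was lower. The mean difference of the synthesis genes was then 0.48, Nsdhl was higher by 0.92 and Insig1 by 0.94, and 0 members passed adjustment. The mice kept in this fit were not free of liver transcripts. Wt mouse 4 (Alb 18.94) was left out, while cre mouse 4 (18.57), cre mouse 10 (17.73) and wt mouse 9 (17.18) stayed. Without wt mice 5 and 6, the lowest in adipocyte markers, 3 of 25 had an unadjusted p under 0.05, where 5.27% of all probe sets did, namely Stard4 (0.44), Abcg1 (-0.77) and Nr1h3 (-0.50). The difference of Hmgcs1 was then 0.26, of Sc5d 0.31 and of Insig1 0.44. The synthesis mean remained higher in cre mice, by 0.21. In batch 2 alone, Insig1 was the only member with an unadjusted p under 0.05, where 4.51% of all probe sets had one. In batch 1 alone there were 4 members, Insig2, Stard4, Abcg1 and Nr1h3, where 7.22% of all probe sets had one.

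**Figure D3:**
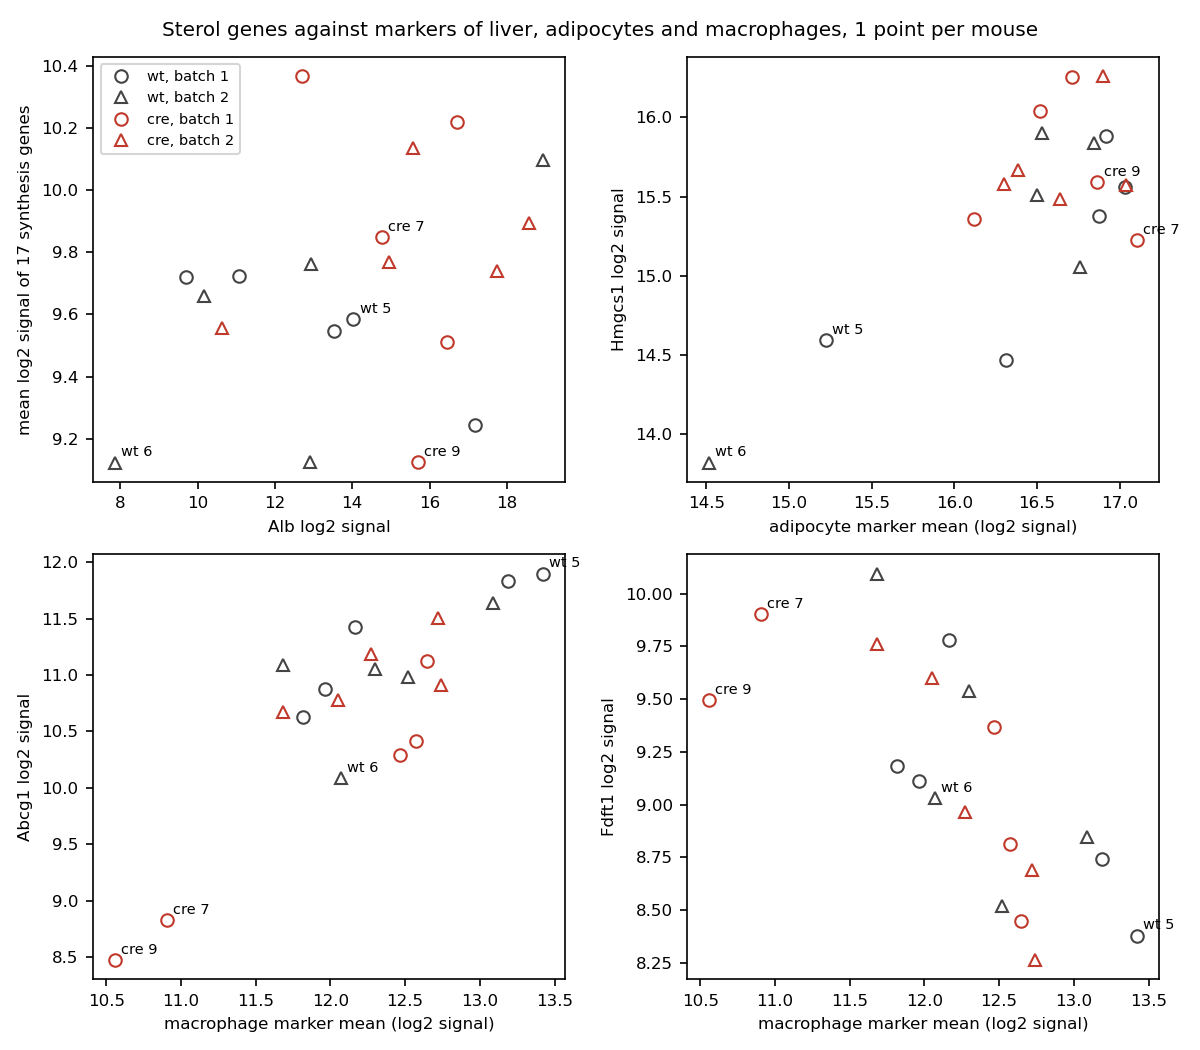
Log2 signals in each of the 20 mice, namely the mean of the 17 synthesis genes against Alb, Hmgcs1 against the adipocyte marker mean, and Abcg1 and Fdft1 against the macrophage marker mean (wt grey, cre red, circles batch 1, triangles batch 2). Hmgcs1 is lowest in wt mouse 6, where adipocyte markers are lowest, and Abcg1 is lowest in cre mice 9 and 7, where macrophage markers are lowest.

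Members were set against cell type markers to see with which cells they varied, after genotype and batch were taken out. Hmgcs1, Sc5d and Nr1h3 rose with the adipocyte marker mean, which made 3 of 25 members past adjustment, where 7.65% of all probe sets were (4.41% with a rise). Per log2 unit of adipocyte markers the slope was 0.64 for Hmgcs1 (SE 0.15, limma adjusted p = 0.00919), 0.52 for Sc5d (SE 0.13, adjusted p = 0.0161) and 0.43 for Nr1h3 (SE 0.11, adjusted p = 0.0147). All 3 calls were lost without wt mouse 6, where the slopes were 0.47 for Hmgcs1 (adjusted p = 0.201), 0.44 for Sc5d (adjusted p = 0.179) and 0.34 for Nr1h3 (adjusted p = 0.207). Without that mouse 3 other members passed, Fdft1 with a slope of 0.97, Insig2 with 0.56 and Abcg1 with -1.04. Without cre mouse 9, Insig1 (0.76) and Insig2 (0.36) passed besides the 3. The share of all probe sets past adjustment in these fits without a mouse is not given here. Adipocyte markers spanned less in cre mice (16.12 to 17.11) than in wt mice (14.51 to 17.03).

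Abcg1 rose with the macrophage marker mean, by 0.95 per log2 unit (SE 0.14, limma adjusted p = 7.9e-05). Fdft1 went the other way, with a slope of -0.61 (SE 0.13, limma adjusted p = 0.00323). Cyp51 rose by 0.44 (SE 0.12, limma adjusted p = 0.0200) and Dhcr7 by 0.89 (SE 0.25, limma adjusted p = 0.0232). These 4 of 25 members passed adjustment, where 10.6% of all probe sets did (7.16% with a rise and 3.47% with a fall). Abcg1 and Fdft1 passed in all 20 fits that left out 1 mouse, Cyp51 in 18 and Dhcr7 in 17. The number of members past adjustment was 6 without wt mouse 6 and 2 without wt mouse 5 or cre mouse 9. In fits that left out mice, the share of all probe sets past adjustment is not given here. Cyp51 was lost without wt mouse 5 (limma adjusted p = 0.0612) and without cre mouse 9 (0.179), and Dhcr7 was lost without wt mouse 5 (0.0902), cre mouse 7 (0.0507) or cre mouse 9 (0.209). Without both cre mice 7 and 9, Fdft1 alone of the 4 passed, with a slope of -0.80 (limma adjusted p = 0.0121), while the slope of Abcg1 was 0.64 (limma adjusted p = 0.0615). The enzymes thus did not all go with the same marker: Fdft1 had a positive estimate on adipocyte markers (0.49, limma adjusted p = 0.0938) and fell with macrophage markers, while Cyp51 and Dhcr7 rose with macrophage markers and had estimates near or below 0 on adipocyte markers (-0.14 and -0.034). Each marker mean was fitted alone, and the 2 means can go opposite ways. Wt mouse 5 was highest in macrophage markers (13.42) and low in adipocyte markers (15.22). Cre mouse 7 was low in macrophage markers (10.91) and highest in adipocyte markers (17.11). In wt mouse 6, the lowest in adipocyte markers (14.51), macrophage markers were at 12.07. Slopes on the 2 means are therefore not 2 separate results.

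Fdft1, at chr14:63145150-63181687, shows its fall with macrophage markers in single mice. Its lowest wt signal was 8.38, in wt mouse 5, which had the highest macrophage marker mean, 13.42. Its highest cre signal was 9.90, in cre mouse 7, where Abcg1 was 8.83 and the macrophage marker mean 10.91. Dhcr7 was highest among wt mice in wt mouse 5, at 10.84, and lowest of all in cre mouse 9, at 7.20.

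The members were next compared with each other over the 20 mice, as Pearson's r after the means of each genotype in each batch were removed. These values share the arrays and the mice, and they are given as a description without a test. Among the 136 pairs of synthesis genes the median r was 0.41 and 41.9% of pairs lay over 0.5, while over all pairs of genes the median was -0.0012 and 4.10% lay over 0.5. The closest pair was Lss with Ebp, at 0.91, and Hmgcs1 with Sc5d reached 0.89. Idi1, Nsdhl and Lss went most closely with the mean of the other synthesis genes, at 0.93, 0.91 and 0.87. Ggps1 (-0.30), Fdft1 (0.089) and Msmo1 (0.17) went least with it, and the lowest pair was Fdft1 with Msmo1, at -0.63. Without the 5 mice with other-tissue transcripts the lowest were Fdft1 (-0.41), Ggps1 (-0.21) and Pmvk (-0.096, from 0.40 in all mice), while Msmo1 was at 0.29. Ggps1 is the gene at the branch out of the pathway and Fdft1 the gene at the entry to sterols, while Msmo1 and Pmvk lie within its arms. Whether a gene's place in the pathway bears on these values was not tested.

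**Figure D4:**
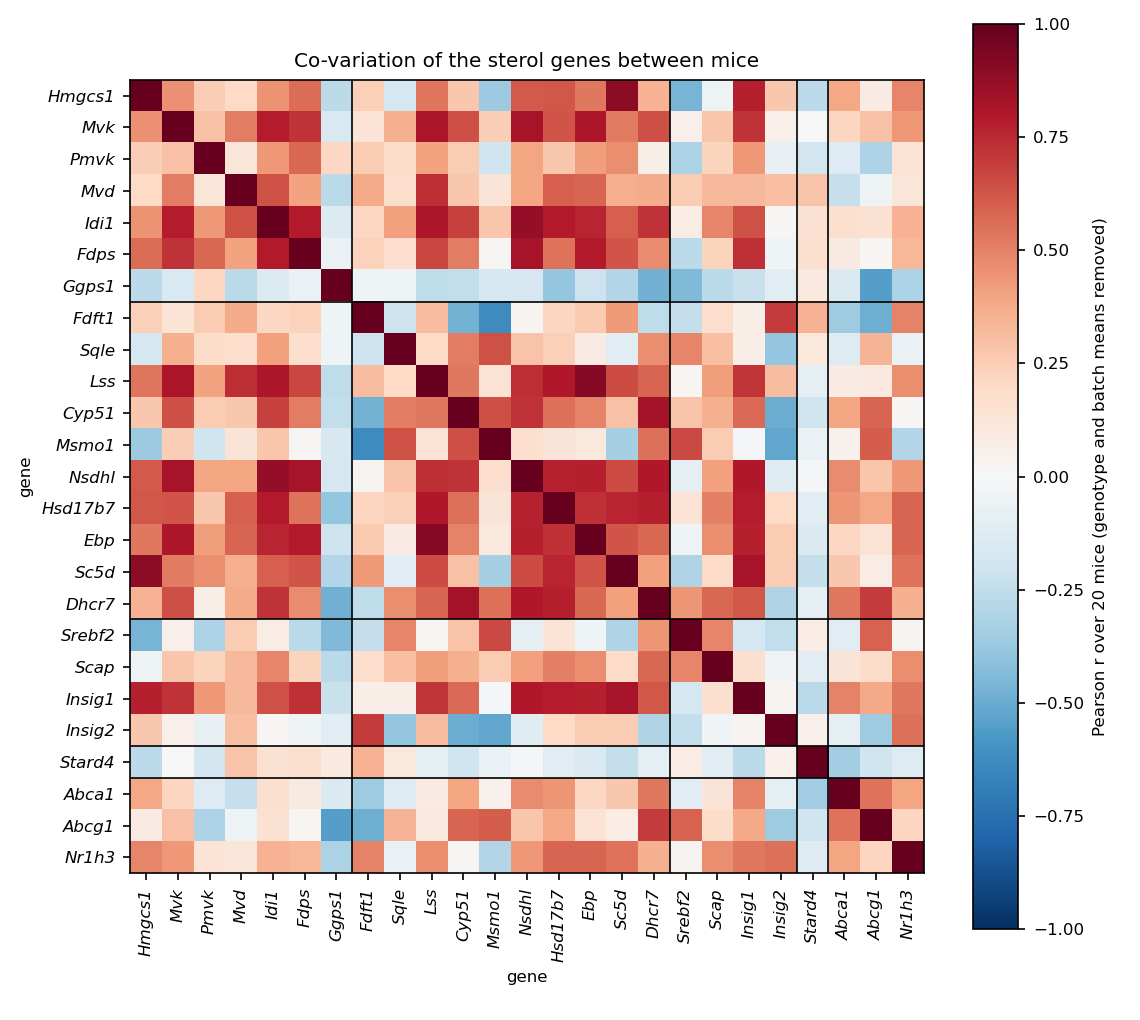
Pearson's r between the 25 sterol genes over 20 mice after removing the mean of each genotype in each batch, as a colour map from -1 to 1 in the order of the pathway. Most synthesis genes form a block of positive r with Insig1, and the rows of Ggps1, Fdft1 and Msmo1 stand out of it.

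Insig1 had a median r of 0.64 with the 17 synthesis genes, highest with Sc5d at 0.83. Srebf2 had a median r of 0.023 with them, highest with Msmo1 at 0.66 and lowest with Hmgcs1 at -0.47. Between synthesis genes and the 3 genes of efflux the median was 0.20, from -0.55 for Ggps1 with Abcg1 to 0.70 for Dhcr7 with Abcg1. Insig2 had an r of 0.027 with Insig1 and of 0.70 with Fdft1. The carrier Stard4 had an r of -0.27 with Insig1 and of -0.27 with Hmgcs1. Without the 5 mice with other-tissue transcripts the median was 0.27 among synthesis genes and 0.39 with Insig1, against 0.0008 over all pairs of genes, and 22.8% of pairs of synthesis genes lay over 0.5, against 6.86% of all pairs. In these 15 mice the extremes were Hmgcs1 with Sc5d at 0.91 and Fdft1 with Cyp51 at -0.82. Without wt mice 5 and 6 the median among synthesis genes was 0.46.

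Outside the listed members, the 10 genes whose signals were most like the synthesis mean over the 20 mice were Cyb5b (r = 0.89), Lclat1, Tmbim6, Nedd4l, Tecr, Ncan, Gamt, Degs1, Lrrc27 and Slc25a10 (0.86). Without the 5 mice with other-tissue transcripts 2 of these 10 were again among the nearest 10, Ncan and Nedd4l, and without wt mice 5 and 6 there were 5.

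Related genes outside the list comprised 31 measured genes of synthesis, sensing, uptake and lysosomal release, transfer, efflux and hydrolysis, and oxysterol synthesis. None passed adjustment for genotype, 11 were higher and 20 lower in cre mice, where 50.7% of all probe sets were higher, and their median difference was -0.085. At an unadjusted p under 0.05 there were 2 of 31, near the 6.29% of all probe sets. Vldlr, a receptor that takes up triglyceride-rich lipoproteins, was higher by 0.60 (SE 0.20, limma p = 0.00632, adjusted p = 0.770). Pltp, which transfers phospholipid between lipoproteins, was lower in cre mice at -0.90 (SE 0.28, limma p = 0.00432, adjusted p = 0.770). By batch this came to -1.39 and -0.42, and the lowest signals of Pltp were 13.99 in cre mouse 9 and 14.82 in cre mouse 7, as for Abcg1. With the macrophage marker mean, 6 of the 31 rose past adjustment, where 7.16% of all probe sets did, namely the receptor Lrp1 (slope 0.65), the lysosomal lipase Lipa (0.94), the lysosomal exporter Npc1 (0.86), Stard3 (0.85), Pltp (0.78) and the ester hydrolase Nceh1 (1.76). With the adipocyte marker mean 1 of the 31 rose past adjustment, Vldlr (0.55, limma adjusted p = 0.00661), and 1 fell, Stard5 (-0.42, limma adjusted p = 0.0358). That is near the 7.65% of all probe sets that passed in this fit.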

How the data were processed

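Total RNA of the fat pads was amplified, labelled with biotin and hybridised, per the labels' protocols. Deposited by the authors were log2 signals of 22206 probe sets per array, made with Transcriptome Analysis Console 4.0.2.15 and RMA on mm10, per the submitters' processing notes. RMA makes arrays alike, so that a shift of most genes would be lost, and whether batch was adjusted for is not given in the sources used here. Medians of the arrays ran from 6.49 to 6.58, and the number of mice limits the precision. Gene names come from the platform annotation, and all 25 members matched RefSeq (GRCm38) by gene number.

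The members, the gene lists and the motifs were chosen with earlier results of these data known, so that their agreement with earlier results is no independent support. Differences and slopes were fitted over all probe sets with limma 3.58.1 in R 4.3.3 (genotype and batch, or also Alb or a marker mean), with Benjamini-Hochberg adjustment and a threshold of 0.05, and the script was tested on simulated data. Slope fits left out the probe sets of the markers themselves. Named with full values were members with an unadjusted p under 0.05 with or without Alb and the 2 brightest of each role group. Other genes named with slopes or correlations were chosen after their values were seen. Means, correlations and motif counts were computed with Python 3.11.15, NumPy 2.4.6 and pandas 2.3.3, and figures with matplotlib 3.10.9. Alternatives were other covariates, prior, weights, normalization and filters, each batch, the replicate block and leaving out mice. Leaving out the 5 mice with other-tissue transcripts or the 2 lowest in a marker list, the liver list mean, the joint covariates and the slopes by batch were added after the data were seen.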

Additional observations from a re-analysis of the deposited data

Results flagged for a closer look

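In 2 of 52 groups of 10 mice a mouse lay far from the others by Dixon's criterion, which chance meets in about 1 in 20 groups. The Insig1 signal of cre mouse 9 was 12.21, while the other cre mice lay between 13.57 and 14.70. The Abca1 signal of wt mouse 6 was 13.14, while the other wt mice lay between 14.03 and 15.04.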

How the results depend on the processing

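All 14 members compared singly kept the direction of their genotype difference in 540 of 546 comparisons under 39 settings, and none passed adjustment (smallest limma adjusted p 0.316). The 6 exceptions were Ggps1 (-0.13), Srebf2 (0.12) and Abcg1 (0.040) in batch 2 alone, Ggps1 (-0.038) and Srebf2 (0.0041) without the 2 mice lowest in macrophage markers, and Ggps1 without cre mouse 7 (-0.0036). Some settings leave a single gene's estimate unchanged by construction, so that their part of the 540 was fixed in advance. These were no batch term, the replicate block, the trended prior, the filter of weak probe sets and the mean of a gene's probe sets. The efflux mean was 0.12 in batch 2 alone, and the synthesis mean was 0.66 with Alb in the fit and without the mice with other-tissue transcripts. The count of 8 members with an unadjusted p under 0.05 was 4 with Alb and in batch 1 alone, 3 with the adipocyte mean, with the liver list mean and without the 2 mice lowest in adipocyte markers, 5 with Alb, adipocyte and macrophage means together, and 1 in batch 2 alone. In the same order, the share of all probe sets was 5.38%, 7.22%, 5.64%, 5.46%, 5.27%, 6.72% and 4.51%. With the macrophage mean alone the count was 6, with 6 higher and 0 lower in cre mice, where 6.51% of all probe sets were counted. Without the 2 mice lowest in macrophage markers 8 were higher and 0 lower, where 5.03% were counted. The count of 2 in the study's selection was 1 with Alb, the macrophage mean or the liver list mean, in batch 2 alone and without the 2 mice lowest in adipocyte markers, 0 with the adipocyte mean, 9 without the mice with other-tissue transcripts, 10 with Alb besides, and 8 at 1.2-fold. Of all probe sets, 1.04% were selected at 1.5-fold in the main fit and 6.14% at 1.2-fold. The share selected under the other settings was not counted. Slopes past adjustment numbered 1 on Alb in batch 2 alone (Hsd17b7). On the adipocyte mean they numbered 5 with array weights, 1 without the mice with other-tissue transcripts and 0 in batch 1 alone, and on the macrophage mean 2 without the 2 mice lowest in adipocyte markers, 1 without the 2 lowest in macrophage markers and 0 in batch 2 alone. The share of all probe sets past adjustment in these slope fits is not given here, so the counts are not read as particular to the members. The cause of the changes was not tested.

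Without each mouse in turn, the count with an unadjusted p under 0.05 ran from 3 to 10, the selection from 0 to 3, members higher in cre mice from 16 to 20, the synthesis mean from 0.19 to 0.34, the efflux mean from -0.39 to -0.17, the difference of Ggps1 from -0.0036 to 0.095, and the slope counts from 3 to 5 on the adipocyte mean and from 2 to 6 on the macrophage mean. The share of all probe sets with an unadjusted p under 0.05 for genotype ran from 5.17% without cre mouse 7 to 7.43% without wt mouse 4. For the selection and the slope counts without a mouse, such shares are not given here. The selection of 2 was 0 without wt mouse 5 and 1 without wt mouse 2, 6, 7, 9 or 10 or cre mouse 1, 5, 7 or 8. Replicate numbers did not pair the mice: 4 of 10 same-numbered pairs had an r over 0.1, from -0.30 to 0.34, and 1 of 10 wt mice correlated best with its own number. With the replicate block 7 members had an unadjusted p under 0.05, where 5.82% of all probe sets did. In that fit 1 member was in the selection and 0 probe sets passed adjustment. Weak probe sets hold background, which compresses their differences.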
